A study of Mus musculus with 62 samples.

Results

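The genes described here are transcription factors and a transcriptional cofactor of cortical projection neurons: Fezf2, Tbr1, Neurod1, Neurod2, Neurod6, Cux1, Cux2, Mef2c and Lmo4. They were chosen by name, as the gene counts of these symbols, with no threshold on a measured value, although earlier results of these data were known. Of the 9, 8 were among the 11569 genes counted in the nucleus accumbens (NAc) and prefrontal cortex (PFC), and 4 (Cux1, Cux2, Mef2c and Lmo4) were among the 12047 genes counted in the suprachiasmatic nucleus (SCN), out of 12483 genes in all. Neurod1 was not analysed here in any region, nor were Fezf2, Tbr1, Neurod2 and Neurod6 in the SCN.

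The study shifted the light cycle of C57BL/6J mice of both sexes (circadian rhythm disruption, CRD) and sequenced RNA from frozen brain punches taken at ZT6, where ZT0 is lights on. The 62 libraries came from 26 mice, with 26 libraries from the NAc, 17 from the PFC and 19 from the SCN, and each library was a separate animal's punch of a region. The labels speak of mice disrupted in adolescence or as adults and of controls (handled and kept on a fixed light cycle, by the study's methods), all killed about a month after the schedule ended, but they do not tie a library to CRD, to an age at exposure or to a sex. In the study's methods only the adolescent exposure is named for these punches, so it is not known whether libraries of mice exposed as adults are included. Region was therefore the contrast that could be tested, and every regional group may mix CRD and control mice of both sexes.

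In the developing cortex, Fezf2 and Tbr1 specify deep-layer neurons, Fezf2 those that project below the cortex and Tbr1 those of layer 6, while Cux1 and Cux2 are homeodomain factors of the upper layers. Neurod2 and Neurod6 are basic helix-loop-helix factors that act as glutamatergic neurons mature and stay on in adult cortex, Mef2c regulates synapse number and activity-dependent genes, and Lmo4 is a LIM-only cofactor that bridges other factors. The NAc, in the ventral striatum, is built mostly of GABAergic projection neurons, and neither it nor the SCN is known to hold many cortical-type excitatory neurons.

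The promoter windows of Neurod2 and Neurod6 are shown because these paralogs were lower in the striatum than in the cortex in every mouse with both regions and, with Tbr1, followed the glutamatergic marker Slc17a7 between NAc libraries. They are the 250 bases before the RefSeq start on GRCm38.p6, read 5′ to 3′ on the minus strand, from chr11:98329646-98329895 for Neurod2 and chr6:55681264-55681513 for Neurod6. Capitals mark a match to CAGATG, the NeuroD-type E-box, in Neurod2, and to AGGTGT, a T-box half-site, in Neurod6, where it lies on the opposite strand.
Neurod2: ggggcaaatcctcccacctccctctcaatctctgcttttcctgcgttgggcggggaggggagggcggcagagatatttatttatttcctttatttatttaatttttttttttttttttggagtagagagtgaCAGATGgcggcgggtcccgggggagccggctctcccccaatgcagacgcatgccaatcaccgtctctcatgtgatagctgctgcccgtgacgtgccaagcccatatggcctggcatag
Neurod6: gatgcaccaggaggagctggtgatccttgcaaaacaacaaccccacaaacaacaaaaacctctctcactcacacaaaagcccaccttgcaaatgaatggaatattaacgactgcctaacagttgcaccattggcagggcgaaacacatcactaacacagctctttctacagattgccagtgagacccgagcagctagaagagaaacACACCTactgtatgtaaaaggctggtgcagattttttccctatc

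The Neurod2 match lies 118 to 113 bases before the start and the Neurod6 match 44 to 39 bases before it. Promoter windows were found for 9 of 9 members, 14 windows in all, and motifs were searched on both strands. CAGATG was in 3 of the 14 windows (of Neurod2, Cux2 and Mef2c) and in 14.4% of 32851 windows of the same length, and AGGTGT was in 2 of 14 (of Neurod6 and Mef2c) against 11.8%. TATAAA was in 3 of 14 against 12.4%. CAGATG is a form of the wider E-box CANNTG, which 66.2% of windows held. GC content was 52.8% in the Neurod2 window and 46.0% in that of Neurod6, with a median of 52.4% over all windows. A match describes letters and says nothing of binding.

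Depth, as summed counts, spanned 28879724 to 60009482 for NAc libraries, 31216225 to 50333579 for PFC libraries and 16496666 to 35389742 for SCN libraries. Mitochondrial and ribosomal RNA genes took 45.4% to 75.2% of it in the NAc (median 57.1%), 49.5% to 67.2% in the PFC (median 54.5%) and 31.5% to 66.3% in the SCN (median 56.5%). Levels are CPM, counts scaled to a common library size (counts per 1000000) after TMM scaling, and the SCN, deposited as a separate table, was scaled on its own and not tested against the other regions. The regions matched their labels: all 9 striatal projection neuron markers listed were higher in the NAc, with a summed level of 1593 to 3734 CPM against 69.9 to 156 CPM in the PFC. All 6 cortical projection neuron markers tested were lower there, 2 of them (Tbr1 and Neurod6) members themselves, with 599 to 1459 CPM against 2005 to 3060 CPM. NAc J1199, named by its mouse, stood apart with the highest Slc17a7 (340 CPM, next highest 206 CPM) and the lowest Drd1 (60.6 CPM) and Ppp1r1b (200.3 CPM) of the NAc. SCN J1199 and SCN J1140 carried striatal markers, with 134 and 66.9 CPM of Ppp1r1b while none of the remaining 17 SCN libraries exceeded 9.87 CPM.

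The comparison of the NAc with the PFC asks how far each factor separates cortex from striatum. All 8 members differed, 7 of them lower in the NAc and Cux1 alone higher, by edgeR's quasi-likelihood test (limits: 0.05 for the adjusted p and 1.2 for the fold change). The background was high: 45.4% of the 11569 genes tested were called, 21.7% lower in the NAc and 23.7% higher. The size of the change set the members apart from most genes more than the call did. Their median log2 fold change was -2.16, against 0.02 over all genes, and 5 of the 8 fell by at least 4-fold, as did 0.847% of all genes. The ranges of CPM did not overlap between the regions for 4 members (Fezf2, Neurod6, Mef2c and Lmo4), all lower in the NAc, against 9.5% of all genes in either direction and 4.67% lower in the NAc. In bulk tissue, fewer cells of a type and less RNA per cell cannot be told apart.

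**Figure D1:**
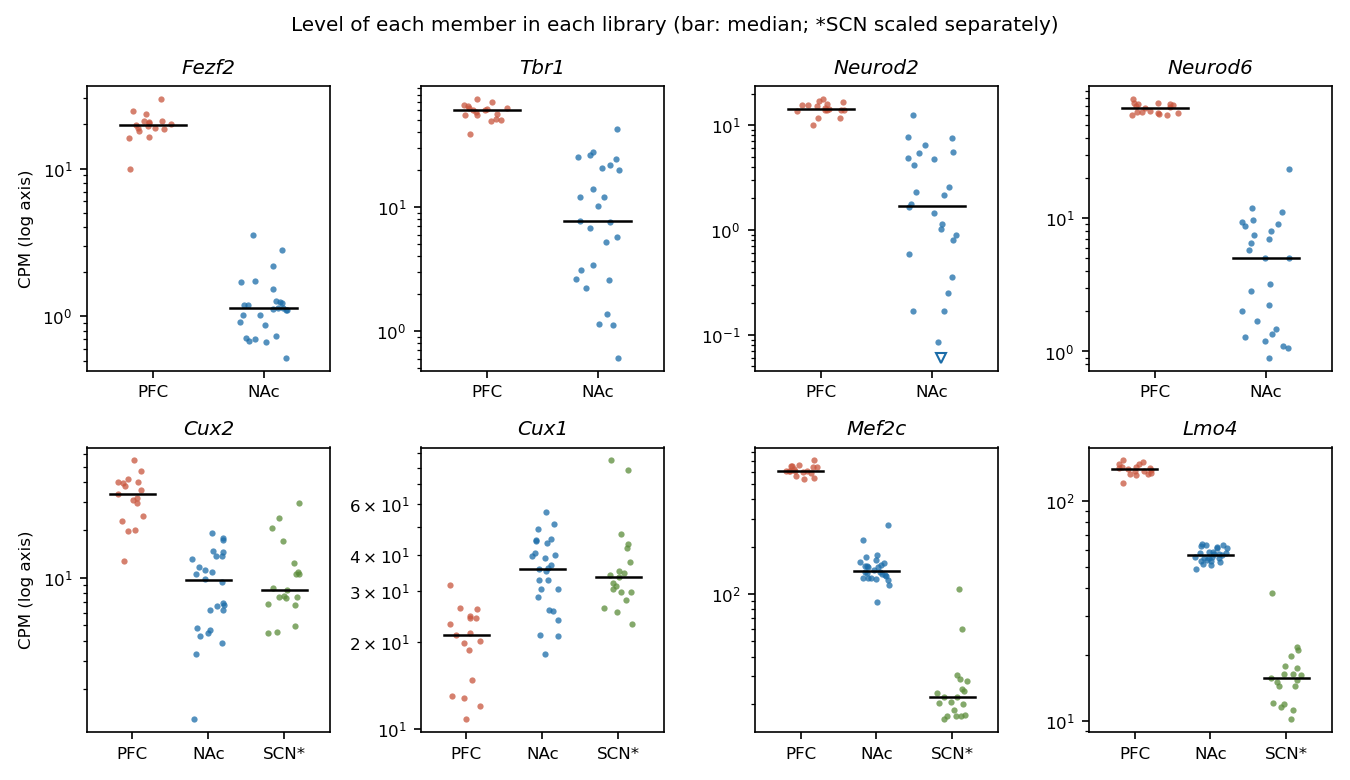
CPM of each member in each library on log axes, with PFC in red, NAc in blue and SCN, scaled separately, in green; bars are medians and an open triangle at the foot of a panel is a count of 0. Fezf2, Neurod6, Mef2c and Lmo4 leave a gap between PFC and NAc, while Cux1 is the member whose NAc median (35.8 CPM) lies above that of the PFC (21.1 CPM).

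Fezf2, a zinc-finger factor required for corticospinal and other subcortical projection neurons, fell furthest over all libraries. Like the other members it is annotated as protein-coding, and it lies on chromosome 14 from 12342094 to 12348189 of GRCm38. PFC libraries held 9.90 to 29.7 CPM (median 19.9 CPM) and NAc libraries 0.522 to 3.57 CPM (median 1.13 CPM). The lowest PFC library thus held more Fezf2 than the highest NAc library. The log2 fold change was -3.93 (SE 0.16, adjusted p = 6.35e-26, edgeR), a 15.3-fold fall and the largest decrease among the 11569 genes in this fit, and the gene was lower in the NAc of 17 of 17 mice with both regions. With the mouse as a block it was -4.23 (SE 0.14), and Neurod6 then fell further (-4.45). The NAc values rested on 16 to 242 counts per library, with a median of 50. The authors had removed genes of low CPM, so genes nearly absent from the NAc may be missing from this ranking.

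Tbr1, the T-box factor of layer 6 neurons, covered a far wider range in the NAc. It lies on chromosome 2 from 61802930 to 61814114. The PFC libraries held 38.4 to 74.1 CPM (median 60.8 CPM) and the NAc libraries 0.608 to 42.5 CPM (median 7.65 CPM). NAc J1199, the highest, exceeded the lowest PFC library, so the ranges met, and without it the next NAc value was 27.8 CPM, below every PFC library. The log2 fold change was -2.30 (SE 0.33, adjusted p = 6.34e-08, edgeR), and Tbr1 was lower in the NAc of 17 of 17 mice. With the mouse as a block, in the 17 mice with both regions, it was -3.60 (SE 0.41), or 12.1-fold in place of 4.92-fold. That fit called 49.1% of all genes.

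The NeuroD paralogs also fell. Neurod6, on chromosome 6 from 55677822 to 55681263, ranged from 60.1 to 79.0 CPM in the PFC (median 67.7 CPM) and from 0.894 to 23.5 CPM in the NAc (median 5.03 CPM). Its ranges did not overlap, and its log2 fold change of -3.53 (SE 0.29, adjusted p = 5.27e-15, edgeR) ranked 7 from the lowest of all genes in the fit over all libraries. The blocked value was -4.45 (SE 0.30), or 21.9-fold in place of 11.6-fold.

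Neurod2, on chromosome 11 from 98325415 to 98329648, ranged from 10.1 to 17.7 CPM in the PFC (median 14.3 CPM) and up to 12.5 CPM in the NAc (median 1.71 CPM). NAc J1199 again was highest and the only NAc library above the lowest PFC library, the next holding 7.65 CPM. NAc J1019 had 0 counts, which allows up to 3 counts, or 0.117 CPM, from counting error alone. The log2 fold change was -2.27 (SE 0.36, adjusted p = 3.09e-07, edgeR), and the blocked one -3.66 (SE 0.43), or 12.6-fold in place of 4.83-fold. Both paralogs were lower in the NAc of 17 of 17 mice.

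Cux2 and Cux1 are paralogs of the upper layers, yet they moved in opposite directions. Cux2, on chromosome 5 from 121856366 to 122050102, ranged from 12.7 to 54.7 CPM in the PFC (median 33.5 CPM) and from 1.28 to 19.2 CPM in the NAc (median 9.59 CPM). The regions overlapped. Cux2 fell by 1.79 on the log2 scale (SE 0.21, adjusted p = 2.26e-10, edgeR) and was lower in the NAc of 16 of 17 mice.

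Cux1, on chromosome 5 from 136248135 to 136567490, ranged from 10.8 to 31.4 CPM in the PFC (median 21.1 CPM) and from 18.1 to 56.1 CPM in the NAc (median 35.8 CPM). The ranges overlapped here too, and the log2 fold change was 0.82 (SE 0.13, adjusted p = 4.33e-07, edgeR), with higher NAc values in 15 of 17 mice. The increase was 0.59 in libraries of the lower range of mouse numbers and 0.99 in those of the upper range. It was 0.92 with the share of mitochondrial and ribosomal RNA as a covariate. Cux1 shares 394 of its 20024 exonic bases with the antisense gene Gm16599, and whether counting used strand is not given in the sources used here.

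Mef2c and Lmo4 were the most abundant members in the PFC and NAc and, among the members, varied least between libraries there. Mef2c, a MADS-box factor on chromosome 13 from 83504034 to 83667080, ranged from 539 to 707 CPM in the PFC (median 605 CPM) and from 88.7 to 277 CPM in the NAc (median 141 CPM). NAc J1199 was again the highest NAc library. Mef2c fell by 2.04 on the log2 scale (SE 0.08, adjusted p = 5.75e-27, edgeR).

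Lmo4, on chromosome 3 from 144188530 to 144205220, ranged from 120.3 to 152 CPM in the PFC (median 140.0 CPM) and from 48.9 to 63.4 CPM in the NAc (median 56.9 CPM). Its fall was the smallest of the 7 (log2 fold change -1.28, SE 0.03, adjusted p = 1.88e-33, edgeR), yet the regions did not overlap. The SD of log2 CPM over NAc libraries was 0.10 for Lmo4, below all but 0.830% of genes, and 0.31 for Mef2c, above 64.9% of genes. For Neurod2 it was 2.07, above nearly all genes. Mef2c and Lmo4 were lower in the NAc of 17 of 17 mice.

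**Figure D2:**
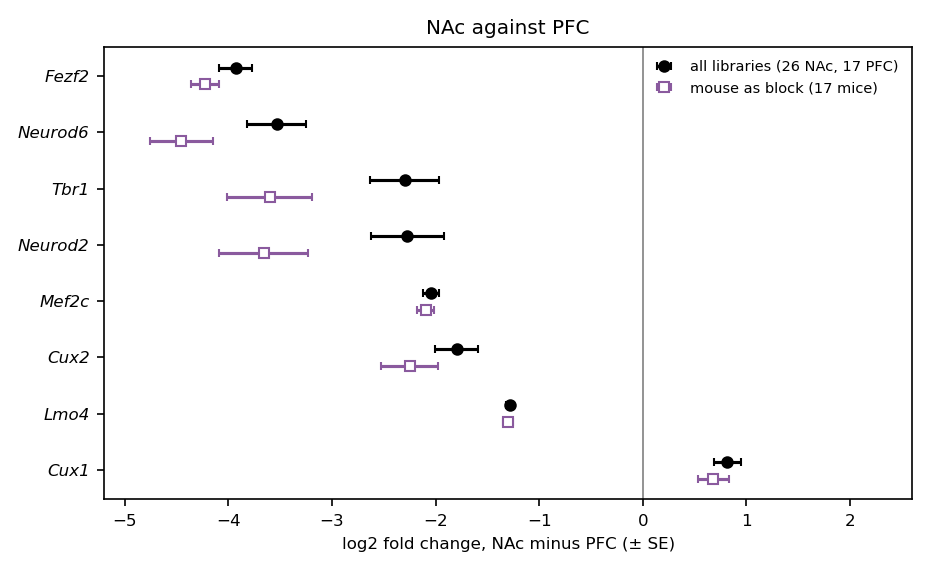
Log2 fold change of each member between the NAc and PFC with its SE, over all libraries (black circles) and with the mouse as a block in the 17 mice with both regions (open squares). The fits differ in the block and in the set of mice, and the values of Tbr1, Neurod2 and Neurod6 differ most between them (-3.60 against -2.30 for Tbr1, with -2.89 in the 17 mice without a block).

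The mice carry numbers of at most J1021 (lower range) or at least J1140 (upper range), which may be cohorts. Within each range all 8 members kept their direction and passed the test. The difference between the ranges was tested as an interaction. No gene of the 11569 passed after adjustment with edgeR, although 2279 genes (19.7%) had an unadjusted p under 0.05, and DESeq2 called 22 (0.19%), none of them a member. Lmo4 came nearest among the members: its log2 fold change was -1.17 in the lower range and -1.38 in the upper, a difference of -0.22 (SE 0.06, p = 0.000758, adjusted p = 0.121, edgeR). DESeq2 gave the difference as -0.21 with an adjusted p of 0.049, short of the 1.2-fold limit. For the other 7 members the adjusted p was 0.362 or more.

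Compared per kilobase of exon, which sets genes on 1 scale, the PFC order of median levels was Lmo4 (39.7 CPM per kb), Mef2c (38.5), Neurod6 (31.5), Tbr1 (11.1), Fezf2 (6.52), Neurod2 (4.54), Cux2 (3.33) and Cux1 (1.05). Every neighboring pair in this order overlapped between libraries except Neurod6 (at least 27.9 CPM per kb) and Tbr1 (at most 13.5). In the NAc, the order was Lmo4 (16.1 CPM per kb), Mef2c (8.95), Neurod6 (2.34), Cux1 (1.79), Tbr1 (1.39), Cux2 (0.951), Neurod2 (0.543) and Fezf2 (0.371). Fezf2 thus went from the fifth place to the last, and Cux1 from the last to the fourth. All neighbors in the NAc order overlapped. These overlaps are of ranges over all libraries and do not compare genes within the same library. The exon lengths pool all annotated isoforms, so the per-length levels are approximate.

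Neurod2, Neurod6 and Tbr1 followed Slc17a7, the vesicular glutamate transporter of cortical excitatory neurons, from one NAc library to another. Slc17a7 itself ranged from 4.60 to 340 CPM over the 26 NAc libraries (median 64.6 CPM) and only from 543 to 647 CPM over the 17 PFC libraries. Pearson's r of log2 CPM in the NAc was 0.975 for Tbr1 (Spearman's rho 0.973), 0.962 for Neurod6 (rho 0.952) and 0.929 for Neurod2 (rho 0.960). Each p was 1e-05, the smallest that 100000 permutations can give, and the adjusted p over the 47 relations computed was 6.7e-05. Without the 2 libraries farthest from the median of Slc17a7, r was 0.982, 0.966 and 0.912. Within the lower and upper ranges of mouse numbers, r was 0.969 and 0.990 for Tbr1, 0.973 and 0.948 for Neurod6, and 0.904 and 0.960 for Neurod2. These values share their libraries and their scaling.

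Fezf2 did not pass in the same libraries. Its r with Slc17a7 was 0.429 (permutation p = 0.028, adjusted p = 0.054) and rho 0.330 (permutation p = 0.10). As a percent of the PFC median, Fezf2 reached at most 18.0% in any NAc library (median 5.69%), Tbr1 70.0% (median 12.6%) and Slc17a7 55.9% (median 10.6%). The difference between these correlations was not tested.

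The remaining members followed Slc17a7 less closely or did not pass. Cux2 had r = 0.599 and rho = 0.549 (permutation p = 0.0012 and 0.0044, adjusted p = 0.0036). Without the 2 farthest libraries its r was 0.434 (permutation p = 0.035) and did not pass after adjustment. Mef2c had r = 0.466 and rho = 0.532 (permutation p = 0.015 and 0.0060, adjusted p = 0.030), but r was 0.358 without NAc J1199 and then did not pass (adjusted p = 0.13). For Cux1 r was 0.358 (permutation p = 0.073) and for Lmo4 it was 0.190 (permutation p = 0.35). In the PFC, where Slc17a7 hardly varied, 0 of the 8 members passed, with r from -0.233 (Cux1, permutation p = 0.38) to 0.488 (Neurod2, permutation p = 0.052).

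**Figure D3:**
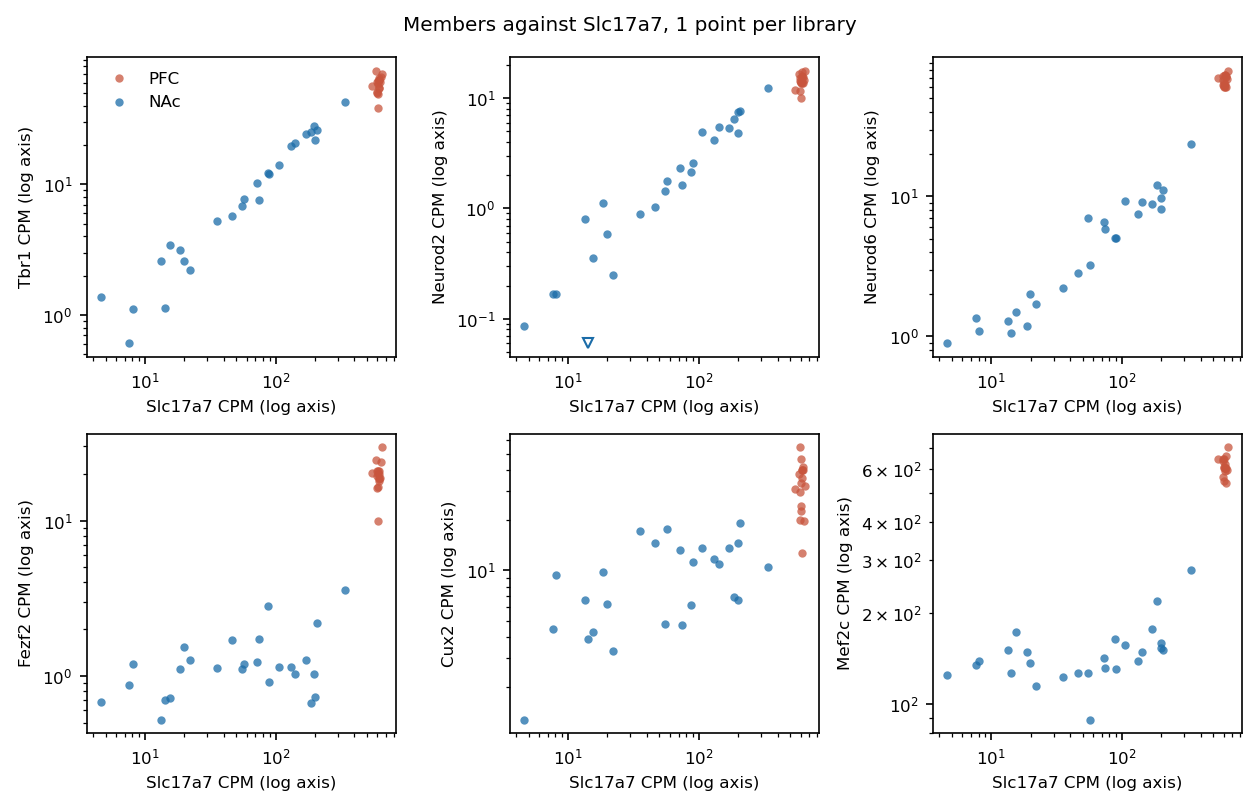
CPM of 6 members against CPM of Slc17a7 on log axes, 1 point per library, NAc in blue and PFC in red; the open triangle at the foot is a count of 0. In the NAc, Tbr1, Neurod2 and Neurod6 climb with Slc17a7 (r from 0.929 to 0.975), while Fezf2 stays between 0.522 and 3.57 CPM.

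The layer genes were then compared within libraries, as the log2 CPM of Cux2 minus the mean of Fezf2 and Tbr1. The value is not per length, so its sign says nothing, but it can be compared between libraries. It was -0.10 ± 0.54 in the PFC (SD, n = 17) and 1.48 ± 0.86 in the NAc (SD, n = 26), a difference of 1.59 (two-sided permutation test, p = 1e-05, the smallest possible with 100000 resamples). With Fezf2 alone as the deep-layer gene the difference was 2.07 (permutation p = 1e-05), and with Tbr1 alone 1.10 (permutation p = 0.0025). The balance was higher in the NAc of 15 of 17 mice, with a mean within-mouse difference of 1.66 (permutation p = 7.6e-05). Cux2 thus fell less than either deep-layer gene, and the share of Cux2 relative to Tbr1 spread widely, from 0.247 in NAc J1199 to 8.38 in NAc J1021 on the scale of CPM ratios, against 0.232 to 0.898 in the PFC.

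**Figure D4:**
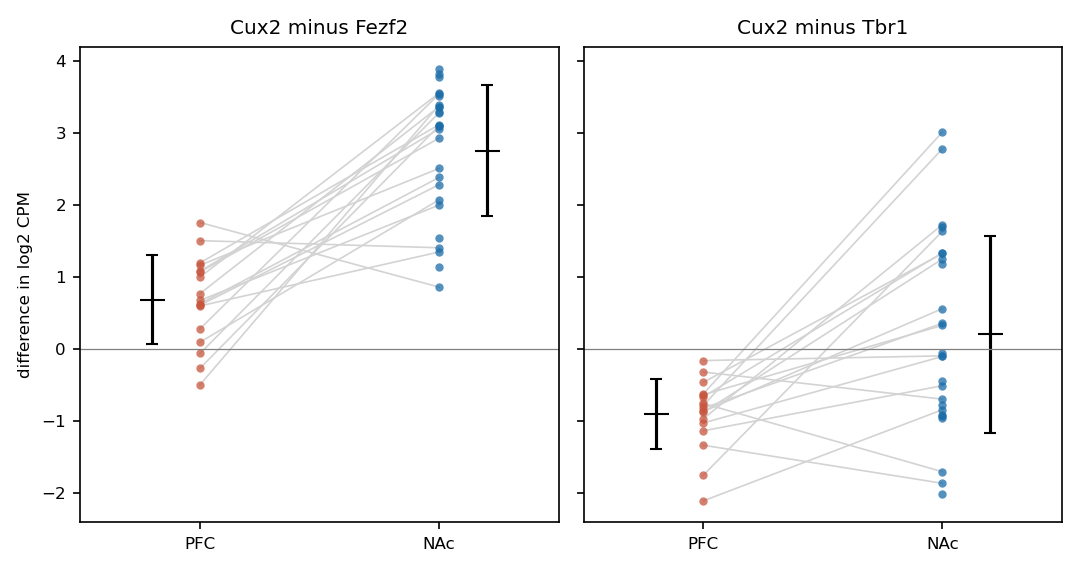
Difference in log2 CPM between Cux2 and Fezf2 (left) and between Cux2 and Tbr1 (right) for each PFC and NAc library; grey lines join the regions of a mouse and black bars are the mean ± SD. The NAc values lie higher on average in both panels, and those against Tbr1 spread more (SD 1.37 in the NAc, 0.49 in the PFC).

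Among PFC libraries, the deep-layer genes moved together by Pearson's r but did not pass by rank, and Cux2 did not move against them. Fezf2 and Tbr1 had r = 0.744 (permutation p = 0.0021, adjusted p = 0.0054) and rho = 0.505 (permutation p = 0.041, adjusted p = 0.08). The r rested on the libraries with extreme Fezf2, since r without PFC J1160 and PFC J1165 was 0.334 (permutation p = 0.22). PFC J1160 was lowest for Fezf2, Tbr1 and Neurod2 and had the largest share of mitochondrial and ribosomal RNA in the PFC (67.2%). PFC J1165, at the median share of 54.5%, was highest for Fezf2, Neurod2, Neurod6, Mef2c and Slc17a7. For Cux2, r was 0.022 with Fezf2 (rho -0.279, permutation p = 0.93 and 0.28) and 0.410 with Tbr1 (rho 0.377, permutation p = 0.10 and 0.14). In the NAc, Cux2 and Tbr1 had r = 0.584 and rho = 0.584 (permutation p = 0.0019 and 0.0024, adjusted p = 0.0052), with r = 0.505 without the 2 farthest libraries.

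By likeness over the 17 PFC libraries, the genes with the highest r of log2 CPM to Fezf2 were Kifap3 (0.934), Usp9x, Ppm1e, Akap11 and Pfkp (0.918). Those most like Tbr1 were Jup (0.936), Sept8, Sv2a, Nipal3 and Cdc5l (0.914), and those most like Cux2 were Shank2 (0.964), Iqsec2, Pitpnm2, Sipa1l1 and Trak1 (0.953). These are the top 5 of 11568 genes and are given as a description. All 15 of them were lower where the share of mitochondrial and ribosomal RNA was higher, with r from -0.857 (Nipal3) to -0.380 (Usp9x).

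Cux1 and Cux2 rose and fell together in every region, although their regional difference had opposite signs. The r between them was 0.888 in the PFC, 0.772 in the NAc and 0.776 in the SCN (rho 0.838, 0.857 and 0.704, permutation p at most 0.0011, adjusted p for r at most 0.00061). Without the 2 libraries farthest in Cux1, r was 0.872 in the PFC and 0.770 in the NAc, but 0.534 in the SCN (permutation p = 0.027), where it no longer passed. Both were lower where mitochondrial and ribosomal RNA took more of the library. For Cux1 this r was -0.730 in the PFC, -0.799 in the NAc and -0.955 in the SCN (rho -0.770, -0.837 and -0.844, permutation p at most 0.0012, adjusted p for r at most 0.0036). For Cux2 it was -0.737, -0.815 and -0.719 (rho -0.850, -0.803 and -0.530, permutation p at most 0.021, adjusted p for r at most 0.0034).

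Leaving out the 2 libraries farthest from the median share changed Cux1 to -0.707, -0.739 and -0.838 and Cux2 to -0.800, -0.743 and -0.392. In the SCN these were SCN J1157 and SCN J1159, and without them Cux2 did not pass (permutation p = 0.12). With SCN J1199 and SCN J1140 left out instead, r for Cux2 was -0.833 (permutation p = 0.00019). SCN J1157 and SCN J1159 had the smallest shares (31.5% and 36.6%) and the highest Cux1 (84.6 and 78.6 CPM) and Cux2 (23.8 and 29.3 CPM) of the SCN. Tbr1 and Neurod2 also passed in the PFC (r = -0.810 and -0.677, rho = -0.686 and -0.488, permutation p at most 0.049) and, with Neurod6, in the NAc (r from -0.612 to -0.510, rho from -0.549 to -0.486, permutation p at most 0.012). Without the 2 farthest libraries r in the NAc was -0.360 for Tbr1, -0.397 for Neurod6 and -0.420 for Neurod2, and in the PFC -0.547 for Neurod2, and none of these passed (adjusted p from 0.091 to 0.18), while Tbr1 in the PFC was at -0.624. By rank, Neurod2 in the PFC did not pass (adjusted p = 0.089). Mef2c and Lmo4 passed in no region. The part of this share in the differences between libraries was not tested.

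**Figure D5:**
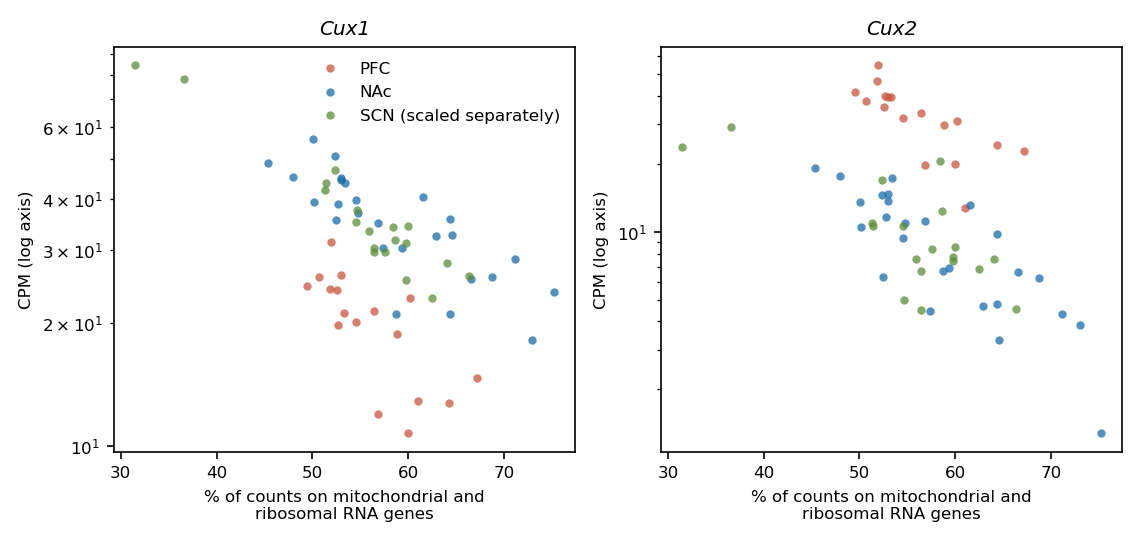
CPM of Cux1 (left) and Cux2 (right), log axis, against the percent of a library's counts on mitochondrial and ribosomal RNA genes, 1 point per library, colored by region. Levels fall as the share rises within each region, with r from -0.955 to -0.719.

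In the SCN, 4 members were measured. Cux1 ranged from 23.0 to 84.6 CPM (median 33.4 CPM) and Cux2 from 4.50 to 29.3 CPM (median 8.39 CPM). Mef2c ranged from 16.0 to 109 CPM (median 22.1 CPM) and Lmo4 from 10.2 to 38.2 CPM (median 15.7 CPM). Per kilobase the SCN order was Lmo4 (4.45 CPM per kb), Cux1 (1.67), Mef2c (1.41) and Cux2 (0.832), and all neighbors overlapped.

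Mef2c and Lmo4 were highest in the libraries with striatal markers. SCN J1199 held 109 CPM of Mef2c and 38.2 CPM of Lmo4, and SCN J1140 held 59.8 and 21.6 CPM. In the other 17 SCN libraries Mef2c stayed between 16.0 and 30.8 CPM (median 20.6 CPM) and Lmo4 between 10.2 and 20.9 CPM (median 15.4 CPM). The summed level of the 7 striatal markers counted in the SCN ranged from 116 to 881 CPM. Drd1 reached 47.7 CPM in SCN J1199, 28.2 CPM in SCN J1140 and no more than 17.8 CPM elsewhere, and Six6, a factor of SCN neurons, was lowest in SCN J1199 (3.44 CPM, median 22.8 CPM). The part of striatal cells in these values was not tested.

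Other genes of the same layers gave no uniform picture of lower levels in the NAc, by the same test. Over all 11569 genes, 21.7% were called lower and 23.7% higher, which is the background for this list and those below. Of 12 upper-layer genes, 5 were called lower, 5 higher and 2 did not pass, with a median log2 fold change of -0.07. Rasgrf2 (-1.36), Lhx2 (-1.02) and Lamp5 (-0.77) were among the lower ones, and Pou3f1 (0.94), Mdga1 (0.92), Otof (0.86) and Plxnd1 (0.77) were higher.

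Of the 13 deep-layer genes tested of 15 listed, 6 were called higher in the NAc, 5 lower and 2 did not pass, with a median log2 fold change of 0.70. The largest increases were those of Syt6 (3.26), Foxp2 (3.25), Bcl11b and Pcp4 (1.67), and the largest decreases those of Zfpm2 (-1.70), Ldb2 (-1.68), Rprm (-0.91) and Etv1 (-0.88). Bcl11b, which acts downstream of Fezf2 in corticospinal neurons, and Foxp2 are also expressed by striatal projection neurons. Fezf2 and Bcl11b thus differed between the regions in opposite directions.

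Among 10 tested of 13 pallial and general cortical factors, 6 were called lower, 2 higher and 2 did not pass (median log2 fold change -0.76). Bhlhe22 (-3.52), a helix-loop-helix factor of cortical area identity, and Zbtb18 (-2.03), a repressor needed by cortical progenitors, were lowest, followed by Nfix (-1.88) and Emx2 (-0.80). Bcl11a (0.49) was among those higher.

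Of the 5 family relatives tested of 12 listed, all of the LMO and MEF2 families, 4 were called higher in the NAc and 0 lower. Lmo3 (1.59), Lmo2 (1.48) and Lmo1 (1.12) rose where Lmo4 fell, and Mef2a (0.74) rose where Mef2c fell, each in 17 of 17 mice. Mef2d, with a log2 fold change of -0.04 (SE 0.08, adjusted p = 0.67, edgeR), did not pass. The table held summed relatives of 271 to 401 CPM in the NAc and 173 to 233 CPM in the PFC.

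Of 9 protein partners, 4 were called lower in the NAc, 1 higher and 4 did not pass. The background was 21.7% of all genes called lower and 23.7% higher, and the partner count was not tested against it. Hdac9 (-1.98) and Hdac4 (-0.64), class IIa deacetylases that bind MEF2 factors, were lower, as was Tcf4 (-0.90), an E protein that pairs with NeuroD factors. Ldb2 (-1.68), a LIM-domain binding protein, was lower and its relative Ldb1 (0.28) higher. Hdac5 had a log2 fold change of -0.07 (SE 0.09) and Tcf12 one of 0.26 (SE 0.04), which fell short of the 1.2-fold limit.

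Markers of other cells differed between the regions as well. All 8 oligodendrocyte markers were higher in the NAc, with a summed level of 571 to 1454 CPM against 131 to 404 CPM in the PFC. Of 7 markers listed for interneurons, 3 were higher (Gad1, Gad2 and Lhx6) and 4 lower (Sst, Pvalb, Vip and Npy). Gad1 and Gad2 mark GABAergic neurons in general, among them the projection neurons of the NAc. Of 5 microglial markers, 0 were called. Of 6 astrocyte markers, 2 were lower and 4 did not pass. Of 3 markers of diencephalic glutamatergic neurons, 1 was higher, 1 lower and 1 did not pass, Syt10 was the sole SCN neuron marker tested and was higher (2.43), and ependymal markers were not analysed here outside the SCN. Their part in the members' differences was not tested.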

How the data were processed

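RNA from punches of the NAc, PFC and SCN was sequenced as paired ends after Smartseq HT library preparation. The authors checked reads with FastQC 0.11.7, used HISAT2 to align them to Ensembl GRCm38 and HTSeq (union mode) to count them per gene, and removed genes of low CPM and of chromosome Y. The deposited values are raw counts, with the SCN kept apart from the NAc and PFC. How the counting treated strand, and the annotation release, are not given in the sources used here. A share of counts on abundant mitochondrial and ribosomal RNA leaves less depth for other genes.

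The members and gene lists were chosen with earlier results of these data known. Groups came from the labels (region and mouse number), which give no CRD group or sex. edgeR 4.0.16 in R 4.3.3 was run over all 11569 genes (TMM, filterByExpr, which removed 0 genes, quasi-likelihood test), and a gene was called when its Benjamini-Hochberg adjusted p was under 0.05 and its fold change 1.2 or more. The SE given with an edgeR log2 fold change is its absolute value divided by the square root of the test's F statistic. No block was used in the main comparison. Libraries of a mouse come from the same animal and so are paired: the correlation of their deviations from the region means ranged from -0.449 to 0.272 over 17 mice and was over 0.1 in 7. DESeq2 1.42.0, its size factors, other filters, the block, each range of mouse numbers, prior counts and rank correlation were alternatives. Leaving out NAc J1199, SCN J1199 and SCN J1140, using the share of mitochondrial and ribosomal RNA as a covariate, and 25 of the 47 relations were chosen after seeing the data. Correlations used log2 CPM (prior count 2) and two-sided permutation tests (100000 resamples, exact under 10 libraries), with adjustment over all 47 relations.

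On simulated counts for the NAc and PFC, edgeR recovered 198 of 200 changed genes and called 10 unchanged ones. No pair of libraries of a region agreed within sampling noise. Every member found was named, with up to 4 called genes per list and direction by size of change, all relatives and partners where a result turned on them, and the 5 genes most correlated with Cux2, Fezf2 and Tbr1 in the PFC. Some genes of the lists are counted but not reported by name here. Positions, exon lengths and gene overlaps came from GENCODE M21 (GRCm38), and promoter windows from RefSeq (GRCm38.p6). Of the Neurod2 window, 3 bases lie in an annotated exon, and of the Neurod6 window 0. Python 3.11.15 with scipy 1.17.1 was used outside R. Intervals and floors cover counting error only.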

Additional observations from a re-analysis of the deposited data

How the results depend on the processing

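The 8 members kept their direction and their call between the NAc and PFC in all 11 alternatives, 88 values in all, and the number of genes called ranged from 4984 to 5743 against 5254. The fit without a filter was identical to the main fit, because the filter removed 0 genes, so its 8 values could not differ. The replicate block, fitted to mice that gave both regions, called 5681 genes (49.1%) and changed no member's call. The log2 fold change was then -3.60 for Tbr1, -3.66 for Neurod2 and -4.45 for Neurod6, and without a block in the same mice -2.89, -3.01 and -4.03, so part of the shift came with the smaller set of mice. The replicate block changed no call of the layer balance either (1.66). Without NAc J1199, Tbr1 was at -2.46, Neurod2 at -2.48 and Neurod6 at -3.73. For the interaction of region with the range of mouse numbers, edgeR called 0 genes, DESeq2 called 22 and the replicate block called 1. No member was among them, although Lmo4 had an adjusted p of 0.049 by DESeq2 and missed only the fold limit (-0.21). Leaving out each library in turn was not run, because every group has more than 5.

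Of the 22 relations fixed first, 7 passed. In the lower range of mouse numbers alone 3 passed and in the upper range 4, each with fewer libraries. Over all 47 relations and their alternatives, 297 values stayed on their side of the threshold with their sign, 40 no longer passed, 6 newly passed and 18 changed sign. None of the sign changes concerned a relation that passed. In the PFC, the lower range gave Slc17a7 an r of -0.188 with Fezf2, -0.162 with Tbr1, -0.0813 with Neurod6, 0.0834 with Cux2 and -0.130 with Lmo4, and gave Cux2 an r of -0.496 with Fezf2, whose rank correlation was -0.279. DESeq2 size factors gave Slc17a7 an r of 0.0135 with Cux2 and 0.0771 with Mef2c, and counts without mitochondrial and ribosomal RNA genes gave 0.0677 and 0.121. For the share of mitochondrial and ribosomal RNA, r changed sign for Fezf2 in the PFC (0.0920 in the lower range, 0.0753 without the 2 farthest libraries), for Mef2c in the SCN (-0.359 in the lower range, -0.145 without SCN J1199 and SCN J1140), for Mef2c in the NAc (0.0576 without the 2 farthest libraries, 0.0844 without NAc J1199) and for Lmo4 in the NAc (-0.303 in the upper range). The cause was not tested. Depth limits Fezf2 and Neurod2 most, with medians of 50 and 77 counts per NAc library.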
